A study of Homo sapiens and Mus musculus with 8 samples.

Results

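Carbonic anhydrases are described here in KM12 and LS174T, established human colorectal cancer cell lines. The genes are CA1, CA2, CA4, CA5B, CA8, CA9, CA11, CA12 and CA13, a list set by gene name, and they make up 9 of the 60483 genes in the count table. RNA was sequenced from each line as cultured cells and as a CDX, a tumor that the line formed in a mouse. KM12 was either parental, labelled GNAS R201H, or carried a GNAS knockout, and LS174T was labelled GNAS R201H with Dox (-) or Dox (+). GNAS encodes the stimulatory G protein alpha subunit, and R201H is a mutation that keeps the protein active.

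Each of the 8 combinations of line, GNAS state and environment was a single library, so no single pair has a replicate check. The tests across pairs take their spread from how far matched pairs differ among themselves. The labels do not say what Dox induces in LS174T, name no Dox-treated library without the mutant gene, and do not say whether the knockout is 1 clone. An effect of Dox and one of mutant GNAS cannot be told apart in LS174T. KM12 parental and LS174T Dox (+) are called the active state here, from the labels.

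Carbonic anhydrases are zinc enzymes that convert carbon dioxide and water to bicarbonate and a proton, and back. CA1, CA2 and CA13 work in the cytosol, CA5B in mitochondria, and CA4, CA9 and CA12 on the outer face of the cell membrane. CA8 and CA11 are relatives that lack the catalytic activity. CA1, CA2 and CA4 are known from the differentiated surface epithelium of the colon. CA9 is a classic target of the hypoxia-inducible factors (HIF), the transcription factors that act when oxygen is low.

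Promoter letters from RefSeq on GRCh38.p14 matched 3 of the 9 genes, CA9, CA12 and CA5B. The 100 bases before each RefSeq start site are shown because hypoxia-response genes and CA9 moved in the xenografts. These starts are not the outermost starts of the GENCODE spans given further below. The CA12 and CA5B stretches lie inside those spans, and so do all but the first bases of the CA9 stretch. Which start these cells used was not tested. Capitals mark copies of the core letters bound by HIF, ACGTG or GCGTG, searched on both strands over the 250 bases before the start.
CA9 (chr9:35673828-35673927, plus strand): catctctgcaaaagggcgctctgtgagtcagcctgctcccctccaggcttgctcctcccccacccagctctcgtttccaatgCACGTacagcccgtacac
CA12 (chr15:63381847-63381946, minus strand): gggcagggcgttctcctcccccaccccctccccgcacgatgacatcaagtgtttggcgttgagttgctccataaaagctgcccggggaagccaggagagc
CA5B (chrX:15738170-15738269, plus strand): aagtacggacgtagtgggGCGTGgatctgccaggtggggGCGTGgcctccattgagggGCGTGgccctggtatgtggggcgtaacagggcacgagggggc

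CA9 held a single copy, CACGT on the plus strand, which begins 18 bases before the start. CA5B held 6 copies of GCGTG, of which those that begin 82, 61 and 42 bases before the start are in the stretch shown. CA12 held a single copy, CACGC, 234 bases before the start and outside the stretch shown. Among 27305 RefSeq promoters, 43.1% held ACGTG or GCGTG in the same window, 18.7% held ACGTG and 31.9% held GCGTG. The cAMP response element TGACGTCA, present in 1.8% of promoters, its short form TGACG, present in 21.7%, and the letters TATAAA, present in 11.1%, were in none of the windows of these 3 genes. These matches describe letters in a window and not binding.

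The cultures had library totals of 31868711 to 37735085 counts and the xenografts of 15924846 to 23124811. GNAS itself was at 1120 CPM (the gene's count relative to the scaled total of its library) in KM12 parental against 297 in knockout cultures, and at 1390 against 901 in the xenografts. In LS174T it was at 1740 with Dox (+) against 690 with Dox (-) in culture, and at 690 against 584 in the xenografts. It was thus higher in the active state in all 4 pairs, by ratios of 3.75 and 2.52 in the KM12 and LS174T cultures. In the xenografts the ratios were smaller, at 1.54 and 1.18. All 10 epithelial markers had counts in every library. They summed to 7540 to 9060 CPM in the KM12 libraries, and to 25400 and 20400 in the LS174T Dox (-) and Dox (+) cultures against 7770 and 5670 in the xenografts. Of the 10, 2 were called higher and 3 lower in the LS174T xenografts, with the keratin KRT8 at -2.66 ± 0.15 (log2, SE, adjusted p of 3.65e-05 in edgeR's test), and EPCAM was at 516 to 762 CPM throughout. The 10 leukocyte markers summed to 245 to 767 CPM in KM12, nearly all of it LYZ, also an epithelial secretory gene, and to 7.79 to 49.1 in LS174T. Of the 4 tested, 1 was called higher in the xenografts, CD14, with 1.51 ± 0.43 and an adjusted p of 0.049, at 55, 44, 181 and 92 counts in the LS174T Dox (-) and Dox (+) cultures and xenografts and at most 4 in KM12. The pan-leukocyte gene PTPRC had at most 1 count in any library, and the part of these markers in the results was not tested. The 10 fibroblast markers summed to 264 CPM in the KM12 parental xenograft and to 4.02 to 13.0 elsewhere, with 8 of the 10 detected against 5 to 10. That sum was mostly COL3A1 at 220, with COL1A1 at 29.2 and LUM at 10.0. The other markers did not set this library apart. COL1A2 was at 3.72 against 3.44 in the knockout xenograft, and PDGFRB at 0.458 and COL6A3 at 0.229 were at their lowest. DCN, PDGFRA, THY1 and POSTN were at most at 0.229. How mouse reads were treated in the xenografts is not given in the sources used here.

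Levels between genes are compared as CPM per kilobase of exon. Averaged over the 8 libraries, CA9 was highest at 35.8, followed by CA12 at 16.8 and CA2 at 10.5. CA11 at 2.67, CA13 at 1.43 and CA8 at 1.42 came next, then CA5B at 0.43, CA4 at 0.177 and CA1 at 0.0677. Each neighbouring pair in this order overlapped in its range over libraries, and the CA9 mean comes from the LS174T xenografts.

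**Figure D1:**
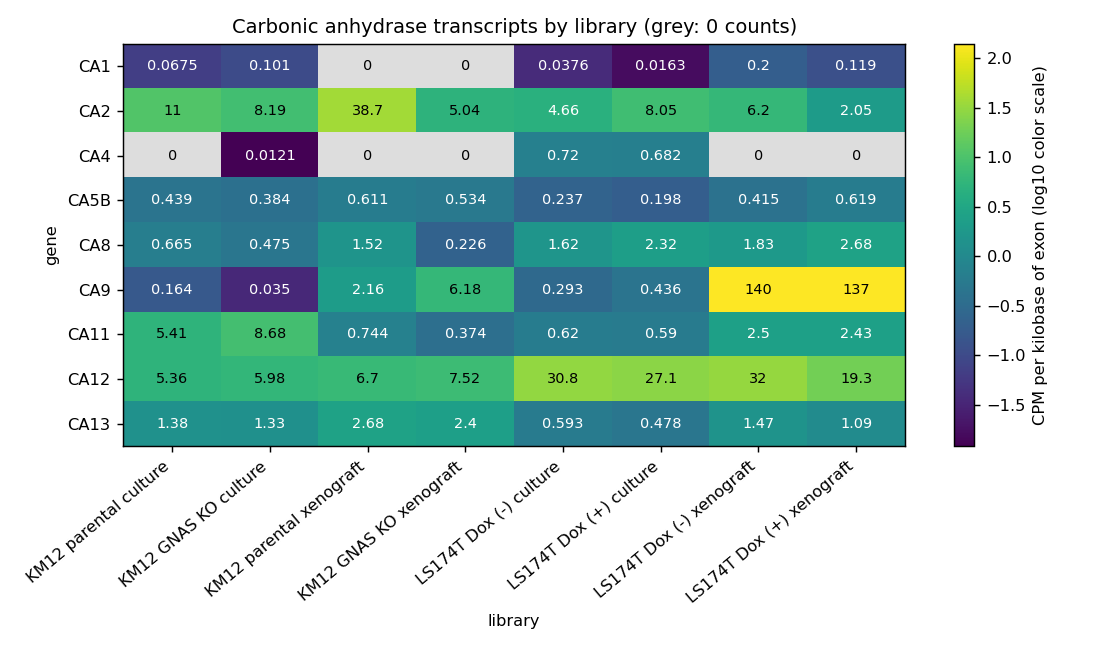
Level of each carbonic anhydrase gene (rows) in the 8 libraries (columns), as CPM per kilobase of exon, with the value in each cell, a log10 color scale and grey for 0 counts. CA12 is high throughout LS174T, and CA9 runs from 0.035 in the KM12 knockout culture to 140 in the LS174T Dox (-) xenograft.

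The leading gene changed with line and environment. In the LS174T cultures CA12 made up 77.8% of the per-kilobase total of the 9 genes with Dox (-) and 68.0% with Dox (+). In the LS174T xenografts CA9 led with 75.8% with Dox (-) and 82.9% with Dox (+), and the total was 185 and 165 CPM per kilobase against 39.6 and 39.9 in culture. In these bulk samples, fewer cells of a type and less RNA per cell cannot be told apart. In KM12, CA2 led in the parental culture with 44.9% and in the parental xenograft with 72.9%. CA11 led in the knockout culture with 34.5%, and CA12 in the knockout xenograft with 33.8%. The KM12 parental total was 24.5 in culture and 53.1 as xenograft, and that of the knockout 25.2 and 22.3.

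**Figure D2:**
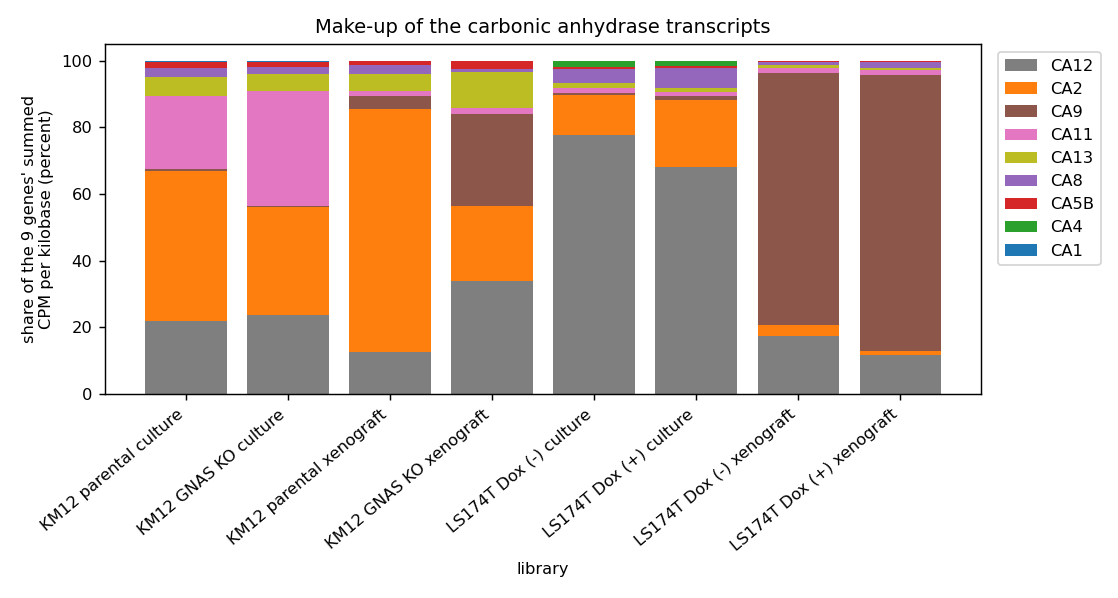
Share of each gene in the summed CPM per kilobase of the 9 carbonic anhydrase genes, 1 bar per library, in percent. CA12 fills most of the LS174T culture bars and CA9 most of the LS174T xenograft bars, where it reaches 82.9%.

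Of the 9 genes, 8 passed the filter of at least 1 CPM in at least 2 libraries. CA1 did not pass. CA4 passed only through the 2 LS174T cultures, so it had to differ by line and environment, and CA9 passed only through the 4 xenografts, so it had to differ by environment. Counts and medians over the 8 genes include both and are given as a description.

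Xenografts had higher CA9 and CA13 than the matched cultures, and LS174T xenografts had no CA4 counts. Under edgeR's quasi-likelihood test over the 4 matched pairs, 2 of the 8 tested genes, CA9 and CA13, were called higher and 1, CA4, lower at an adjusted p of 0.05. Of these, CA9 and CA4 entered the test only through the environment in which they are high. Of all 16070 tested genes, 26.1% were called, 12.6% higher and 13.5% lower, and the median log2 difference was 0.11 for the 8 genes and 0.02 for all tested genes. With the libraries scaled by total counts alone, the median of all genes moved to 0.28 and the calls to 3347 higher and 985 lower, from 2023 and 2166. Left without the KM12 parental, KM12 knockout, LS174T Dox (+) or LS174T Dox (-) pair, the number of genes called was 2613, 2021, 11 or 596, and that of the 8 between 0 and 2.

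CA9, the membrane enzyme linked to hypoxia, stayed below 1 CPM in every culture. It had 8 and 2 counts, or 0.275 and 0.0585 CPM, in cultured KM12 parental and knockout cells. The LS174T cultures had 16 counts with Dox (-) and 22 with Dox (+), or 0.490 and 0.727 CPM. In the xenografts it was at 3.60 CPM in KM12 parental, 10.3 in KM12 knockout, 233 in LS174T Dox (-) and 229 in LS174T Dox (+). All 4 xenografts were above all 4 cultures.

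The CA9 ratio of xenograft to culture was 13.1 in KM12 parental (95% counting interval 6.27 to 31.7) and 176 in KM12 knockout (48.3 to 1470). It was 476 in LS174T Dox (-) (293 to 834) and 315 in LS174T Dox (+) (208 to 502). These intervals cover counting error only. Across the pairs the difference was 7.67 ± 0.89 on the log2 scale (SE, 4 pairs), a 204-fold rise with an adjusted p of 0.0098 in edgeR's test. The filter let CA9 in only through the xenografts. With low-count genes kept in the fit the difference was 7.56, with an adjusted p of 0.0468. Without the LS174T Dox (+) pair the difference was 7.14 and the call was lost, with an adjusted p of 0.0566.

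CA9 shares 643 exon bases, 38.5% of its own, with ARHGEF39 on the opposite strand, and the library protocol describes no step that marks strand. ARHGEF39 was at 19.0 to 21.2 CPM in the cultures. In the xenografts it was at 31.4 and 28.4 CPM in KM12 parental and knockout, and at 55.4 and 39.4 in LS174T Dox (-) and Dox (+). Its highest level was thus below that of CA9 in both LS174T xenografts and above that of CA9 in both KM12 xenografts. How far reads of the shared bases entered either count was not tested.

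CA13, a cytosolic enzyme, was at 7.65 and 7.34 CPM in cultured KM12 parental and knockout cells and at 14.8 and 13.3 in the matching xenografts. In LS174T it was at 3.28 CPM with Dox (-) and 2.65 with Dox (+) in culture, and at 8.12 and 6.00 in the xenografts. Each xenograft was above its own culture, by ratios of 1.81 to 2.48, though the LS174T Dox (+) xenograft stayed below the KM12 cultures. The difference was 1.07 ± 0.22 (log2, SE, 4 pairs), with an adjusted p of 0.0237 in edgeR's test. The call was lost without any 1 of the 4 pairs, with adjusted p of 0.055, 0.0572, 0.0956 and 0.0814.

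CA4, the membrane-anchored enzyme of surface colonocytes, was detected almost only in the LS174T cultures, with 57 counts (1.75 CPM) with Dox (-) and 50 counts (1.65 CPM) with Dox (+). It had 1 count in the KM12 knockout culture and 0 in the other 5 libraries. Against a floor of 3 counts in the xenograft library, CA4 was at least 14.3-fold lower in the LS174T Dox (-) xenograft and at least 11.4-fold lower in the Dox (+) xenograft. These levels are a description, since the filter let CA4 in only through the LS174T cultures.

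CA5B, the mitochondrial enzyme, was at 3.74 and 3.27 CPM in cultured KM12 parental and knockout cells and at 5.21 and 4.55 in the xenografts. In LS174T Dox (-) it was at 2.02 CPM in culture and 3.53 in the xenograft, and in Dox (+) at 1.69 and 5.28. The 4 xenografts and the 4 cultures overlapped, by the KM12 parental culture and the LS174T Dox (-) xenograft. The difference of 0.84 ± 0.32 (log2, SE, 4 pairs) did not pass, with an adjusted p of 0.101 in edgeR's test, though it passed under DESeq2 with 0.0377. CA5B has a pseudogene copy, CA5BP1, and shares 1874 exon bases (22.0%) with INE2, which had 0 counts in every library, so its counts are uncertain.

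CA2, the fast cytosolic enzyme, did not move in 1 direction. It was at 23.4 and 82.3 CPM in the KM12 parental culture and xenograft, and at 17.4 and 10.7 in the knockout culture and xenograft. In LS174T it was at 9.89 and 13.2 CPM in the Dox (-) culture and xenograft, and at 17.1 and 4.36 with Dox (+). The xenograft was above its culture by 3.52-fold in KM12 parental (3.21 to 3.86) and by 1.33-fold in LS174T Dox (-) (1.14 to 1.56). The ratio was 0.615 in KM12 knockout (0.525 to 0.719) and 0.255 in LS174T Dox (+) (0.201 to 0.319). The pairs together gave -0.10 ± 0.63 (log2, SE), with an adjusted p of 0.919 in edgeR's test.

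The high CA2 library is the KM12 parental xenograft, the one with COL3A1 at 220 CPM. The part of fibroblast transcripts in its CA2 level was not tested. CA2 and CA1 are also abundant in red blood cells. The 10 red blood cell markers summed to 0.242 to 1.66 CPM in all libraries, with 2 to 6 of them detected in a library.

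**Figure D3:**
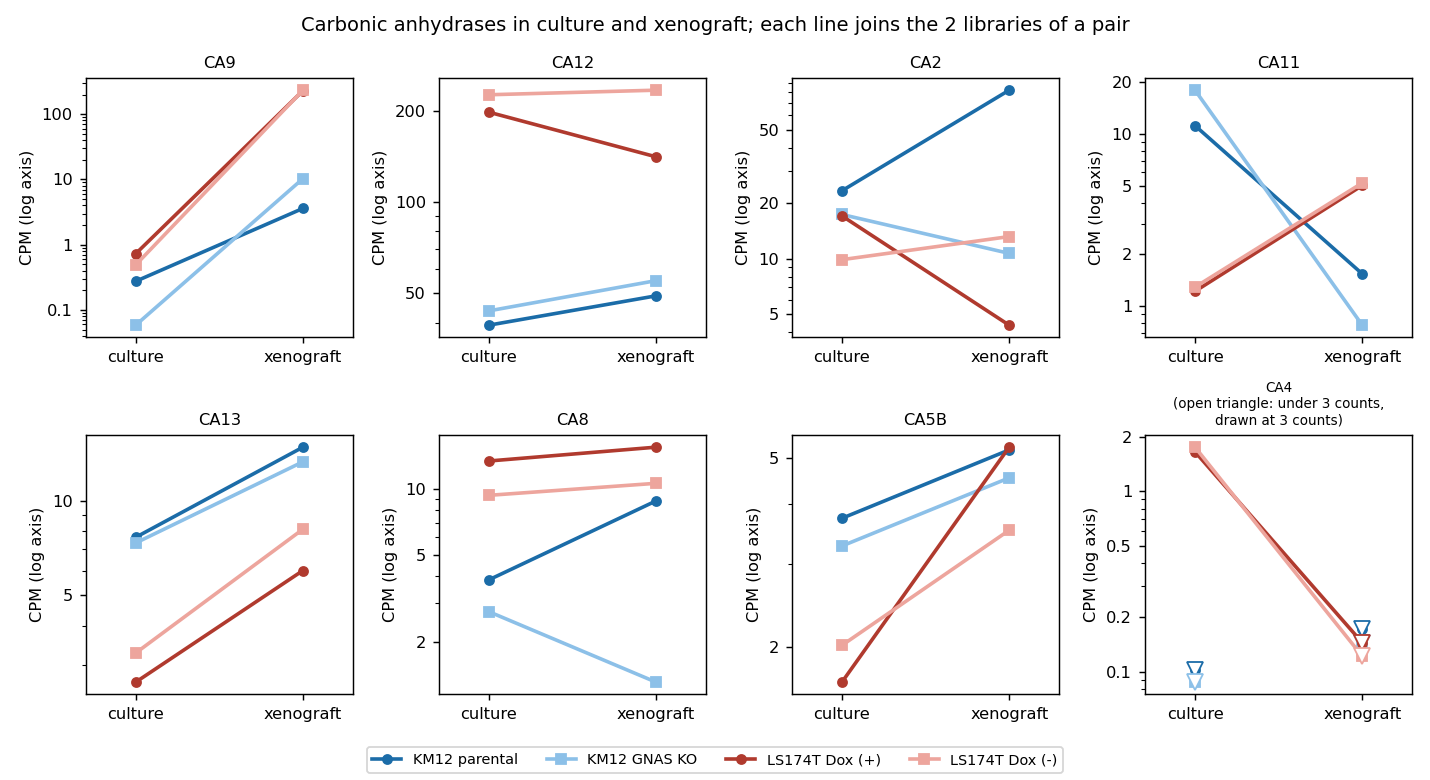
CPM of the 8 tested genes in culture and in the matched xenograft, on a log scale, with a line joining each of the 4 pairs of line and GNAS state, and open triangles for CA4 libraries under 3 counts, drawn at 3. The CA9 lines rise in all 4 pairs, CA13 rises by 1.81 to 2.48 times, and the CA2 and CA11 lines cross.

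CA12, a membrane enzyme with its active site outside the cell, was not called between xenograft and culture. The xenograft to culture ratios were 1.25 and 1.26 in KM12 parental and knockout, 1.04 in LS174T Dox (-) and 0.712 in LS174T Dox (+). The difference over the pairs was 0.05 ± 0.18 (log2, SE), with an adjusted p of 0.836 in edgeR's test. CA8, a catalytically inactive relative, had ratios of 2.29 in KM12 parental, 0.476 in KM12 knockout, 1.13 in LS174T Dox (-) and 1.16 in LS174T Dox (+), and its difference was 0.16 ± 0.39 with an adjusted p of 0.783.

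CA11, the other inactive relative, went in opposite directions in the lines. It was at 11.2 and 18.0 CPM in cultured KM12 parental and knockout cells and at 1.54 and 0.775 in the matching xenografts. In LS174T it was at 1.29 and 1.22 CPM in cultured Dox (-) and Dox (+) cells and at 5.20 and 5.03 in the xenografts. Within each line the culture and xenograft levels did not overlap.

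The CA11 ratio of xenograft to culture was 0.138 in KM12 parental (0.0893 to 0.204) and 0.043 in KM12 knockout (0.0244 to 0.0705). It was 4.04 in LS174T Dox (-) (2.83 to 5.87) and 4.11 in Dox (+) (2.80 to 6.16). In a fit with an environment effect for each line, CA11 fell by 3.66 ± 0.46 in KM12 and rose by 2.02 ± 0.42 in LS174T (log2, SE, 2 pairs each), with adjusted p of 0.00189 and 0.00615 in edgeR's test. The difference between the lines was -5.68 ± 0.62, with an adjusted p of 0.00179. It was the only call among the 8 tested genes, against 13.7% of all tested genes, of which 5.94% were higher and 7.74% lower in KM12.

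Within the lines, KM12 had 2 of 8 genes called higher and 1 lower, against 29.8% of all tested genes called, 14.3% higher and 15.5% lower. LS174T had 4 of 8 called higher and 1 lower, against 45.9%, 23.4% higher and 22.5% lower. These counts include CA9 in both lines and CA4 in LS174T. The filter let each in only through the environment in which it is high, so those calls were set by the filter. CA9 rose by 5.35 ± 0.66 in KM12 and by 8.57 ± 0.54 in LS174T (log2, SE), with adjusted p of 0.0061 and 0.000522 in edgeR's test. The difference between these rises was -3.22 ± 1.19, with an adjusted p of 0.149. It passed, with 5.31e-05, where genes with low counts were kept in the fit. CA13 rose by 0.90 ± 0.26 in KM12 and by 1.25 ± 0.27 in LS174T, with adjusted p of 0.0342 and 0.00731. CA5B rose by 1.22 ± 0.37 in LS174T, with an adjusted p of 0.0272, against 0.48 ± 0.36 in KM12, with 0.339. That difference had an adjusted p of 0.372.

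**Figure D4:**
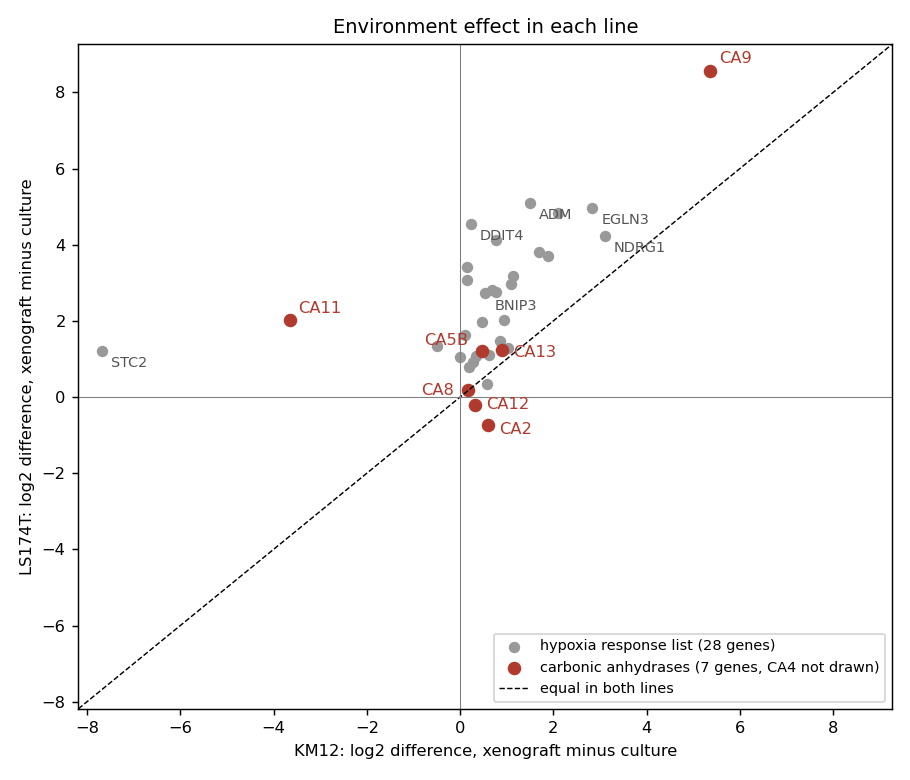
Log2 difference of xenograft minus culture in KM12 (horizontal) and in LS174T (vertical) from the edgeR fit, for 7 carbonic anhydrases (red, without CA4) and the 28 tested hypoxia response genes (grey); the dashed line marks equal values. CA11 lies at -3.66 in KM12 and 2.02 in LS174T, and CA9 lies above 0 in both.

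Genes of the hypoxia response were also higher in the xenografts. Of 30 listed genes, which do not include CA9, 28 were tested, all 28 were above 0 in xenograft against culture, and 14 were called higher and 0 lower, against 12.6% and 13.5% of all tested genes. The median log2 difference was 1.66, against 0.02 for all tested genes. NDRG1, a stress gene induced in low oxygen, was at 21.7 and 27.4 CPM in cultured KM12 parental and knockout cells and at 141 and 308 in the xenografts. In LS174T it was at 77.9 and 70.5 CPM in cultured Dox (-) and Dox (+) cells and at 1960 and 998 in the xenografts. Its difference was 3.67 ± 0.35 (log2, SE, 4 pairs), with an adjusted p of 0.00968 in edgeR's test. EGLN3, an oxygen sensor that marks HIF for breakdown, rose by 3.92 ± 0.57, and EGLN1, its relative, and SLC2A1, a glucose transporter, rose by 1.16 ± 0.18 and 1.15 ± 0.18.

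In LS174T 27 of the 28 hypoxia genes were called higher, against 23.4% of all tested genes, with a median of 2.74. In KM12 15 were called higher and 1 lower, against 14.3% and 15.5%, with a median of 0.65. For 19 of the 28 genes the difference between the lines itself was called, lower in KM12, against 7.74% of all tested genes. In the list of the HIF system, 7 of 8 genes were tested, and 1 was called higher and 2 lower in the xenografts, against the same 12.6% and 13.5%. EGLN2, another oxygen sensor, rose by 1.14 ± 0.18, while HIF1A, the oxygen-regulated subunit, fell by 1.09 ± 0.20, and HIF1AN, which blocks HIF activity, fell by 0.60 ± 0.13 (log2, SE, adjusted p of 0.0143, 0.0186 and 0.0254 in edgeR's test). EPAS1, the other oxygen-regulated subunit, had a difference of -1.59 ± 0.54 that did not pass, with 0.0753.

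Partners of carbonic anhydrases that carry bicarbonate and acid were counted in lists of their own. Of 21 bicarbonate transport genes, 15 were tested, with 2 called higher and 0 lower in the xenografts and a median of 0.42. That count is near the 12.6% of all tested genes called higher, so it is no result about the list. SLC4A4, a sodium bicarbonate cotransporter, rose by 1.84 ± 0.22 with an adjusted p of 0.0098 in edgeR's test. SLC4A10, of the same family, passed the filter only through 3 xenografts, at 1.32 to 3.15 CPM, and was at most at 0.242 CPM elsewhere. SLC26A6, an anion exchanger, had 0.52 ± 0.15 and did not pass, with 0.0531.

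Of 23 proton and lactate transport genes, 14 were tested, with 1 called higher and 4 lower, against 12.6% and 13.5% of all tested genes, and a median of -0.27. SLC9A3, a sodium-proton exchanger of the gut surface, fell by 3.56 ± 0.27, its scaffold NHERF1 by 1.03 ± 0.12 and the lactate transporter SLC16A1 by 1.04 ± 0.13. The adjusted p were 0.00789, 0.0098 and 0.0103 in edgeR's test. AQP1, a water channel, passed the filter only through the xenografts, at 2.03 to 9.27 CPM against 0.306 to 0.877 in the cultures. Both SLC9A3 xenograft levels in KM12 were 0 and its cultures were at most at 0.172 CPM, so its fall rests on LS174T, at 99.6 and 72.2 CPM in culture against 9.78 and 5.52 in the xenografts.

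KM12 and LS174T also differed in their carbonic anhydrases at matched state and environment. Of the 8 tested genes, 1 was called higher and 4 lower in KM12, against 31.5% of all tested genes called, 14.8% higher and 16.7% lower. The medians were -0.64 for the 8 genes and 0.02 for all tested genes. Without 1 of the 4 pairs between 2 and 4 of the 8 were called, with 2 without either culture pair. These comparisons use the same libraries as those above.

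CA12 was lower in KM12 than in LS174T throughout. It was at 39.2, 43.7, 49.0 and 55.0 CPM in cultured KM12 parental and knockout cells and xenografts, and at 226, 198, 234 and 141 CPM in cultured LS174T Dox (-) and Dox (+) cells and xenografts. The lines did not overlap, and LS174T was 2.89 to 5.16 times higher in the 4 matched pairs. The difference was -2.08 ± 0.18 (log2, SE, 4 pairs), with an adjusted p of 0.00153 in edgeR's test and of 0.00404 to 0.0106 without 1 pair.

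CA8 was at 3.84, 2.75, 8.81 and 1.31 CPM in cultured KM12 parental and knockout cells and xenografts. In LS174T it was at 9.34 and 13.4 in cultured Dox (-) and Dox (+) cells and at 10.6 and 15.5 in the xenografts, all above the KM12 values. The difference was -1.82 ± 0.39 (log2, SE, 4 pairs), with an adjusted p of 0.0205 in edgeR's test, and it was lost without either culture pair, with 0.0643 and 0.0587. CA13 was higher in KM12 in each matched pair, by 1.17 ± 0.24 and an adjusted p of 0.0167, and lost its call without the active culture, other culture or active xenograft pair, with 0.0905, 0.0743 and 0.0548.

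CA9 was lower in KM12 by 4.50 ± 0.78 (log2, SE, 4 pairs), with an adjusted p of 0.0106 in edgeR's test. LS174T was 63.5 times higher in the active xenografts and 22.6 times in the other xenografts. The CA9 call was lost where low-count genes were kept, with 0.0898, and without the KM12 knockout and LS174T Dox (-) xenografts, with 0.0567. CA4 is counted among the 4 lower genes, a call set by the filter, which it passed only through the LS174T cultures. Its 0 counts in the KM12 parental culture make it at least 16.1-fold lower there than in the LS174T Dox (+) culture.

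CA11, CA2 and CA5B were not called between the lines, with adjusted p of 0.765, 0.313 and 0.224 in edgeR's test. KM12 had more CA11 in culture, by 9.17 times in the active pair and 14.0 times in the other, and less in the xenografts, with ratios of 0.307 and 0.149. CA2 was 18.9 times higher in the KM12 parental than in the LS174T Dox (+) xenograft, while its ratio in the other xenograft pair was 0.814.

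Mature colonocyte genes, the differentiated cell type in which CA1, CA2 and CA4 are known, were called lower in KM12 for 6 of 11 tested genes and higher for 0, against 16.7% and 14.8% of all tested genes. The selenium-binding protein SELENBP1 had -3.49 ± 0.45 and the microvillus protein VIL1 -2.35 ± 0.31 (log2, SE, adjusted p of 0.00463 and 0.00499 in edgeR's test). SLC9A3 and the adhesion protein CEACAM7 are among the 6 but passed the filter only through LS174T, with at most 0.172 and 0.92 CPM in KM12. Of 15 bicarbonate transport genes, 5 were called higher and 2 lower in KM12, against the same 14.8% and 16.7%. Among the 15, SLC4A3 and SLC26A9 passed the filter only through KM12, so their direction was set by the filter. SLC4A3 was at 0.484 to 11.8 CPM in KM12 and at most at 0.406 in LS174T. SLC26A9 was at 0.0969 to 2.05 CPM against at most 0.276. The count of higher genes is therefore a description. SLC4A4 was higher by 3.41 ± 0.27 and the sulfate transporter SLC26A2 by 1.37 ± 0.23, while CFTR, the chloride and bicarbonate channel, was lower, with -6.31 ± 1.14. SLC26A11, the other lower gene, passed the filter only through LS174T, at 12.1 to 14.4 CPM against 0.172 to 0.436 in KM12.

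In the proton and lactate list 2 of 14 genes were called higher and 5 lower in KM12, against 14.8% and 16.7% of all tested genes, with the lactate exporter SLC16A3 at -2.04 ± 0.27 and NHERF1 at -1.61 ± 0.11. The sodium-proton exchanger SLC9A8 was higher by 0.91 ± 0.14. SLC9A3 is counted among the 5 lower genes here too, a call set by the filter, which it passed only through LS174T.

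No carbonic anhydrase was called for GNAS state over the 4 pairs, and neither was any other gene. Of the 8, 0 passed, as did 0% of all tested genes in edgeR's quasi-likelihood test. At an unadjusted p of 0.05, 977 genes passed, 6.08% of those tested, among them CA8 and CA12. DESeq2 called 57 genes and none of the 8. The median log2 difference was -0.09 for the 8 genes and 0.01 for all tested genes. GNAS itself differed less in the KM12 and LS174T xenograft pairs, by 1.54 and 1.18 times, than in the culture pairs, by 3.75 and 2.52 times.

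CA8 was higher in the active state in 4 of 4 pairs. How many of all tested genes kept the same direction in every pair was not counted, so this describes the gene only. The ratios were 1.40 in KM12 culture (1.05 to 1.86), 6.74 in KM12 xenograft (4.45 to 10.6), 1.43 in LS174T culture (1.23 to 1.67) and 1.46 in LS174T xenograft (1.24 to 1.73). The difference was 0.98 ± 0.39 (log2, SE, 4 pairs), with an unadjusted p of 0.0397 and an adjusted p of 0.776 in edgeR's test. It passed only where low-count genes were kept in the fit, with 0.97 and an adjusted p of 0.0088.

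CA12 was lower in the active state in 4 of 4 pairs, with the same limit. The ratios were 0.896 in KM12 culture (0.829 to 0.968), 0.891 in KM12 xenograft (0.814 to 0.974), 0.88 in LS174T culture (0.85 to 0.91) and 0.603 in LS174T xenograft (0.577 to 0.631). The difference was -0.31 ± 0.12, with an unadjusted p of 0.0339 and an adjusted p of 0.776 in edgeR's test.

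CA2 was higher in the active state in 3 of 4 pairs. Its ratio was 1.34 in KM12 culture (1.2 to 1.5), 7.68 in KM12 xenograft (6.67 to 8.89) and 1.73 in LS174T culture (1.5 to 1.99), but 0.331 in LS174T xenograft (0.259 to 0.419). The difference of 0.67 ± 0.79 had an adjusted p of 0.858 in edgeR's test. In the culture pairs alone it was 0.59, with an adjusted p of 0.0259, where 194 genes were called. The KM12 xenograft pair, with the largest ratio of both CA2 and CA8, is the one whose parental library holds the high COL3A1, COL1A1 and LUM.

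**Figure D5:**
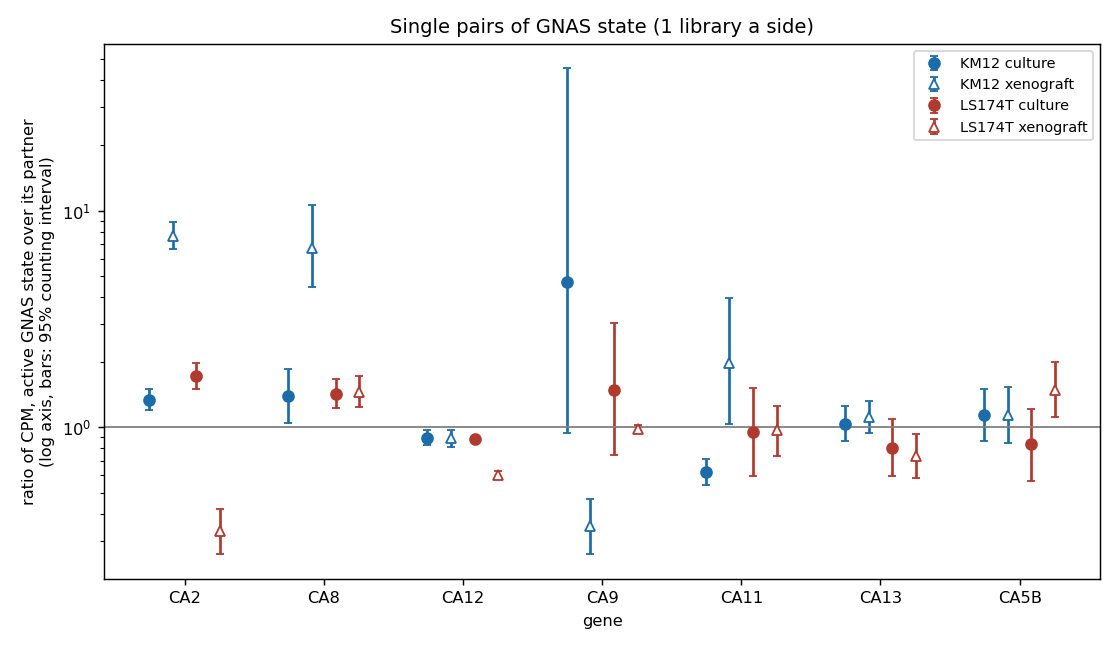
CPM ratio of the active to the other GNAS state for 7 genes (without CA1 and CA4) in the 4 pairs of line and environment, on a log scale, with 95% counting intervals. CA8 lies above 1 and CA12 below 1 in all 4 pairs, and CA2 runs from 0.331 to 7.68.

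The CA9 ratio of active to other state was 4.70 in KM12 culture, where 8 and 2 counts give an interval of 0.937 to 45.4, and 0.349 in KM12 xenograft (0.259 to 0.465). It was 1.48 in LS174T culture (0.745 to 3.02) and 0.98 in LS174T xenograft (0.943 to 1.02). In the LS174T xenograft pair all 28 tested hypoxia genes were below 0, with a median log2 ratio of -0.68 against 0.007 for all tested genes. In the KM12 xenograft pair, where CA9 was lower in the parental library, 19 of the 28 were above 0, with a median of 0.16 against 0.023. Each state in these pairs was a single library, so these counts are a description. Over the 4 pairs 8 of the 28 were above 0 and 20 below, and 0 were called in edgeR's test. The median was -0.098 against 0.014 for all tested genes. The CA9 difference over the 4 pairs was -0.34 ± 0.41, with an adjusted p of 0.859 in edgeR's test.

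CA11, CA13 and CA5B had differences of -0.05 ± 0.29, -0.12 ± 0.19 and 0.18 ± 0.23 (log2, SE, 4 pairs), with adjusted p of 0.974, 0.884 and 0.864 in edgeR's test. The GNAS difference did not differ between lines or environments for any of the 8 at an adjusted p of 0.05, where 0.00622% and 0% of all genes were called. The adjusted p of the 8 genes were at least 0.965 between lines and at least 0.891 between environments. Of 11 tested mature colonocyte genes, 0 were above 0 in the active state over the 4 pairs and 0 were called, with a median of -0.83. In each culture pair 3 of the 11 were above 0, with medians of -0.378 in KM12 and -0.229 in LS174T. In each xenograft pair 0 were above 0, with medians of -1.495 and -0.796. KRT20, a keratin of surface colonocytes, had -1.81 ± 0.33, with an adjusted p of 0.776.

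CA1, the cytosolic enzyme of red cells and surface colonocytes, stayed near the detection limit. It had 8 and 14 counts in cultured KM12 parental and knockout cells and 0 in both KM12 xenografts. In LS174T it had 5 and 2 counts in cultured Dox (-) and Dox (+) cells and 20 and 10 in the xenografts. Summed over each line, it was at least 4.41-fold lower in the KM12 xenografts than in the cultures, by a floor of 3 counts over the group, and 5.95-fold higher in the LS174T xenografts (2.56 to 16.1). It was left out of the main tests by the filter. With low-count genes kept in the fit, the difference between the lines was called, with an adjusted p of 0.000602 in edgeR's test, and its fitted size depends on the 0 counts.

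The genes most like each carbonic anhydrase over the 8 libraries were found by Pearson's r of log2 CPM among 11428 genes. They share libraries, and with 8 points from 2 lines and 2 environments many genes reach a high r. CA9 was closest to COPG2 and LMBRD1 at 0.988 and TMEM231 at 0.986. CA12 was closest to GUK1 and LRRC75A at 0.995 and PNPLA8 at 0.992. CA8 was closest to the channel gene CFTR at 0.974, the mucin gene MUC5B at 0.973 and CELF2 at 0.972.

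CA2 was closest to PTPRJ at 0.973 and to SMC4 and PLPP2 at 0.955. CA11 was closest to BTBD2 at 0.985, NBR2 at 0.982 and ENSG00000203644 at 0.976. CA13 was closest to CMTR1 at 0.991, ZNF26 at 0.99 and SMN1 at 0.988, of which SMN1 has a near-identical copy and is uncertain. CA5B was closest to L3HYPDH at 0.983, RPL31 at 0.981 and TXNRD2 at 0.973. Among the carbonic anhydrases themselves, r was highest between CA5B and CA13, at 0.861.

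The genes lie at these GRCh38 positions in GENCODE. CA13 (chromosome 8, 85220587 to 85284073, plus strand), CA1 (85327608 to 85379014, minus strand) and CA2 (85463852 to 85481493, plus strand) are neighbours among the listed genes. CA3, a carbonic anhydrase gene outside the list, overlaps the span of CA1 on the opposite strand. CA8 lies on the same chromosome at 60187347 to 60281412 on the minus strand. CA9 spans 35673856 to 35681159 of chromosome 9 on the plus strand, and CA12 63321378 to 63382161 of chromosome 15 on the minus strand. CA4 spans 60149936 to 60170899 of chromosome 17 on the plus strand, CA11 48637942 to 48646312 of chromosome 19 on the minus strand and CA5B 15688830 to 15788409 of chromosome X on the plus strand. The neighbours CA13, CA1 and CA2 did not move together: CA13 was higher in each xenograft, CA2 in 2 of the 4 and CA1 in the LS174T pairs. CA3, at 9 to 27 counts a library and not called, had xenograft to culture ratios of 1.48 and 1.37 in KM12 parental and knockout. Its ratios were 2.07 and 2.93 in LS174T Dox (-) and Dox (+).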

How the data were processed

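RNA-seq of 8 libraries, 1 per group, was used. The authors deposited raw read counts per human gene. Per the submitters' processing notes, the tools were STAR 2.7.2b and HTSeq 0.11.0 and the builds hg38 and GRCm39. The annotation release, the strand setting and the treatment of mouse reads are not given in the sources used here. The organism label of the 4 xenografts is mouse. No mouse gene is listed in the table (0 identifiers), and reads from mouse cells that match human genes could add to xenograft counts. Names, coordinates and exon lengths came from GENCODE on GRCh38, which holds 93.8% of the genes and 99.96% of the counts.

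CPM were counts over TMM-scaled library size (factors 0.904 to 1.107). The 16070 genes that reached 1 CPM in 2 or more libraries were tested with edgeR 4.0.16 (R 4.3.3), quasi-likelihood F test, Benjamini-Hochberg adjustment and a threshold of 0.05. Matched pairs were a block, taken from line and GNAS state for the environment, line and environment for GNAS, and GNAS state and environment for the line. The SE is the absolute log2 difference over the square root of F. Nothing says that matched libraries came from separate cultures or animals. Counting intervals are exact binomial at 95%, and 0 counts are set to a floor of 3. DESeq2 1.42.0, limma-voom (limma 3.58.1), other scaling, no filter and leaving out a pair were alternatives. The code was tested on simulated data.

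The members and gene lists were chosen with earlier results of these data known. Genes named were all members, GNAS, the other carbonic anhydrase genes, up to 4 genes a list and comparison with the smallest p, and the 3 genes most correlated with each member that averaged 1 CPM or more, out of genes that averaged 5 CPM or more. Some that the rule allows are left out. ARHGEF39, INE2, CA5BP1, COL3A1 and the other fibroblast markers, EPCAM, PTPRC, KRT8, LYZ and CD14 were named after their values were seen, as overlapping or marker genes. So were CDH5 and ELF3 as marker genes, and SLC4A3 and SLC26A9 for how they passed the filter.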

Additional observations from a re-analysis of the deposited data

Results flagged for a closer look

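CA11 had environment effects of opposite sign in the lines, and the difference between KM12 and LS174T was tested at -5.68 on the log2 scale (edgeR, adjusted p of 0.00179). All 4 pairs kept to their own line's direction, with 2 pairs per line.

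CA1 had 22 counts in the KM12 cultures and 0 in the KM12 xenografts, but 7 counts in the LS174T cultures and 30 in the LS174T xenografts, a ratio of 5.95 (2.56 to 16.1, counting error only). Both pairs of a line went the same way. The difference was not tested in the main fit, whose filter left CA1 out. With low-count genes kept it had an adjusted p of 0.000602 in edgeR's test, and at 0 to 20 counts a library CA1 is near the detection limit.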

How the results depend on the processing

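Among values of single carbonic anhydrases under an alternative, 276 kept their direction and side of the threshold, 4 gained a call, 17 lost one and 21 changed direction. The calls lost are given with the genes, apart from those of CA4, whose calls the filter set, and the causes were not tested. For CA9 over the environment the adjusted p ran from 1.69e-19 to 0.0566 over the alternatives, and for CA12 between the lines from 1.48e-21 to 0.0106 (DESeq2 and edgeR). With no replicate block for the matched pairs 5582 genes were called for environment, 0 for GNAS and 5976 for line, and none of the called carbonic anhydrases lost its call.

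Leaving out 1 pair at a time gave 11 to 2613 genes for environment (11 without the LS174T Dox (+) pair, 596 without the Dox (-) pair), 0 to 1 for GNAS and 2726 to 4152 for line, from 4189, 0 and 5069. The carbonic anhydrases called were 0 to 2 for environment and 2 to 4 for line, from 3 and 5. Those fits have fewer samples. For GNAS, DESeq2 called 57 genes, keeping low-count genes gave 281 with 1 carbonic anhydrase (CA8), the culture pairs alone 194 with 1 (CA2) and the xenograft pairs alone 1. Keeping low-count genes gave 3428 genes and 3 carbonic anhydrases (CA1, CA9 and CA11) for the environment effect by line, 123 genes for GNAS by line and 160 for GNAS by environment, where DESeq2 gave 5 and 28, from 2198, 1 and 0 genes.

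Uncalled differences that changed sign (log2) were, for environment, CA12 at -0.04 with low-count genes kept and -0.033 to 0.243 without 1 pair; CA2 at 0.315 under limma-voom, 0.163 by total counts, 0.292 with no replicate block and -0.732 to 0.52 without 1 pair; CA8 at -0.179 to 0.526 and CA11 at -2.083 to 0.678 without 1 pair. For GNAS they were CA9 at 0.101 under DESeq2 and -0.492 to 0.148 without 1 pair, CA2 at -0.039 to 1.347 and CA11 at -0.312 to 0.231 without 1 pair, CA11 at 0.403 in the xenograft pairs alone and CA5B at -0.013 in the culture pairs alone. CA11 between lines ran from -0.735 to 2.099 without 1 pair. For GNAS by line, CA5B was at -0.051 and CA11 at -0.069 with low-count genes kept. Depth limits CA1 and CA4, and CA9 in culture.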

Other observations

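The other 6 carbonic anhydrase genes of the table stayed low, with a summed level of 1.98 to 3.10 CPM in the libraries. CA3, a muscle enzyme of the cytosol, was at 0.298 to 1.37 CPM, and CA14, a membrane enzyme, at 1.20 to 2.40 CPM. These were the only 2 tested. Neither was called for environment, with 0.88 ± 0.38 and an adjusted p of 0.136 for CA3 and -0.41 ± 0.30 and 0.34 for CA14 (log2, SE, 4 pairs, edgeR), nor for GNAS state (0.97 and 0.813) or line (0.31 and 0.594). CA7, a cytosolic enzyme, had at most 3 counts in any KM12 library and 5, 3, 14 and 8 counts in the LS174T Dox (-) and Dox (+) cultures and xenografts. CA5A had at most 2 counts, CA6 at most 3 and CA10 at most 1 in any library.

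BEST2, a bicarbonate-permeable channel gene of the colon, was at 87.0 CPM in the LS174T Dox (-) xenograft and 78.4 in the Dox (+) xenograft, and at 0.137 to 0.40 CPM in the other 6 libraries. It passed the filter on low counts only through those 2 xenografts, so these levels are a description with no test. SLC4A4 was at 18.1 and 13.4 CPM in cultured KM12 parental and knockout cells and at 44.7 and 64.6 in the xenografts, against at most 6.92 CPM in any LS174T library.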
